A study of Mus musculus with 10 samples.

Results

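Cytosolic ribosomal protein genes encode the proteins of the large and the small subunit of the ribosome. They were measured in ribosome-bound RNA from the cerebral cortex of mice that had self-administered saline or cocaine or had served as yoked controls. Members were chosen by symbol: every Rpl or Rps gene whose symbol continues with a digit, together with the stalk genes Rplp0, Rplp1 and Rplp2, without the Rps6k kinase genes and without symbols that carry -ps. Of 32531 genes in the tables, 102 symbols matched the patterns, 10 kinase symbols and 6 -ps symbols were set aside, and 85 of the remaining 86 had at least 10 counts in 3 libraries. These 85 members comprise 52 large subunit and 33 small subunit genes. At the edge of that count rule, Rpl39l had 10 or more counts in exactly 3 libraries (13, 22 and 23 counts) and stayed in, while Rpl10l had 1 count over all libraries and was left out.

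The tissue came from adult S100a10-EGFP/Rpl10a (ES691) mice, in which S100a10 regulatory sequences drive a ribosomal protein, Rpl10a, fused to EGFP (an enhanced green fluorescent protein). In translating ribosome affinity purification (TRAP), tagged polysomes are captured from tissue homogenate with antibodies against EGFP, and the RNA that comes with them is sequenced. All mice carried this transgene, and the study used intravenous self-administration with short access sessions. The immunopurified (IP) libraries fall into saline self-administration (n = 3), cocaine self-administration (n = 3) and yoked control (n = 3), and 1 library is the unpurified saline input. Not stated in the labels are the treatment of the yoked mice, the number of mice behind each library and whether replicates are separate mice. The replicate spread used for the p-values may thus be technical. Saline, cocaine, yoked and input libraries were sequenced on lanes 4, 5, 6 and 7, and the groups cannot be told apart from their lanes.

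A ribosome holds 1 copy of most of its proteins, and cells make them in near-equal amounts from mRNAs that are short and abundant. Many of these mRNAs start with a run of pyrimidines, the terminal oligopyrimidine (TOP) tract, through which the kinase mTOR and the RNA-binding protein Larp1 control their translation. In neurons, mTOR signalling and phosphorylation of the small subunit protein Rps6 are widely used as readouts of activity, and part of the ribosomal protein mRNA pool lies in dendrites and axons. The genes also have many processed pseudogenes, which are near-copies of the mRNA elsewhere in the genome.

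The annotated starts of 8 members are shown because they are the part of the transcript in which a TOP tract would lie. Each window is 30 bases of RefSeq sequence on mouse build GRCm38.p6, 5′ to 3′ on the gene's strand, with 15 bases before the annotated start and the first 15 bases of the transcript. Capitals mark the longest run of C and T that overlaps the 5 bases on either side of the start.
Rps6: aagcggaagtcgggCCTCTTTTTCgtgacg
Rpl15: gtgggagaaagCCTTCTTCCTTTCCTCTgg
Rpl35a: gcggggcttgCCTTCCTCTTTCCgccatct
Rplp2: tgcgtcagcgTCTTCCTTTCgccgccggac
Rps27: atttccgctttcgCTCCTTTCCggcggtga
Rpl10a: gtggcgCCCCCCCagcggccgcaaactgca
Rpl41: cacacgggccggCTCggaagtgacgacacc
Rps19bp1: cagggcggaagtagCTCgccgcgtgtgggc

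Rps6 (chr4:86857353-86857382), Rpl15 (chr14:18270972-18271001) and Rps27 (chr3:90213634-90213663) lie on the minus strand, and Rpl35a (chr16:33056467-33056496) and Rplp2 (chr7:141447636-141447665) lie on the plus strand. The run measured 10 bases in Rps6, 17 in Rpl15, 13 in Rpl35a, 10 in Rplp2 and 9 in Rps27. Rpl10a (chr17:28328456-28328485, plus strand) had a run of 7, all of them C, that ended before the annotated start. Rpl41 (chr10:128549154-128549183, minus strand) and Rps19bp1 (chr15:80264292-80264321, minus strand) had runs of 3. Over the 64 members with a RefSeq entry, 24 (37.5%) had a run of at least 8 pyrimidines, read on the transcript's strand only, against 11.35% of the 27025 genes in the same table. The share was 37.5% in each subunit, 15 of 40 large and 9 of 24 small subunit members. Annotated starts can miss the base at which transcription begins, so a missing run says only that these letters are not in this window.

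The levels below are CPM, meaning counts relative to the library total after TMM adjustment (a scaling that aligns most genes between libraries), and a log2 fold change (log2FC) comes with its SE. Calls rest on edgeR's quasi-likelihood test, with Benjamini-Hochberg adjustment over all genes tested and a threshold of 0.05. Gene counts ranged from 38653752 to 50898401 in the IP libraries and reached 69974908 in the input. The purification showed in S100a10, the gene whose regulatory sequences drive the tag, at 168 to 282 CPM after IP against 35.2 CPM before it. All 13 neuronal markers fixed for the check exceeded 10 CPM in all IP libraries, with a summed level of 22356 to 32078 CPM against 25290 CPM in the input. Most of that sum was Snap25, at 15784 to 24717 CPM in the IP libraries and 17248 CPM in the input. Map2 (306 to 476 against 1154 CPM), Gad1 (38.2 to 145 against 194 CPM) and Gad2 (143 to 555 against 718 CPM) lay below the input in every IP library. Neurod6 lay above it in every IP library (135 to 176 against 114 CPM), and the input lay within the IP range for the other markers. Markers of meningeal fibroblasts were also high, summing to 20926 to 41493 CPM in the IP libraries against 902 CPM in the input, or 1875 to 3177 CPM against 122 CPM without Ptgds. Oligodendrocyte markers summed to 220 to 736 CPM against 1313 CPM and nuclear RNAs to 178 to 406 CPM against 4857 CPM. The part of these marker levels in the ribosomal protein values was not tested. In such bulk RNA, fewer cells of a type and less RNA per cell cannot be told apart.

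Ribosomal protein transcripts made up a small share of the counted reads, between 0.362% and 0.654% of gene counts in each library. Their deposited levels differed widely per kilobase of transcript, although ribosomes need the proteins in near-equal numbers. On the per-kilobase scale, as the mean over the 9 IP libraries, Rpl4 at 378 CPM per kb, Rps15 at 342 and Rpl8 at 302 were among the high members. At the other end were Rpl5 at 0.183 CPM per kb, Rpl3l at 0.195, Rpl39l at 0.260 and Rpl24 at 0.564. Rpl3l and Rpl39l are paralogs known for muscle and testis, whereas Rpl5 and Rpl24 are parts of the ribosome in all tissues.

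Levels went with how much of each transcript can be told from copies. A read that aligns to more than 1 place is not counted, and such reads took 38.3% to 46.8% of the assigned, ambiguous, featureless and non-unique reads in each library. As a measure of uniqueness, each member's transcript was cut into all its 50-base stretches, and the share found in no transcript of another annotated gene was counted. Rpl4, at 83.5% unique, shared stretches with 1 other gene. In contrast, only 6.16% of Rpl5, shared with 15 other genes, and 1.35% of Rps27 were unique. The 19 members with under 20% unique sequence had a median of 4.60 CPM over the IP libraries, against 85.2 CPM for the 14 members above 80%. In between, the medians were 23.2 CPM (20 members from 20% to 40%), 21.9 CPM (17 members from 40% to 60%) and 77.3 CPM (15 members from 60% to 80%). Per kilobase the medians of the 5 classes, from least to most unique, were 8.93, 32.0, 40.6, 113 and 43.7 CPM per kb, so the most unique class lay below the class before it. That class holds long reference transcripts, such as those of Rps15a (5130 bases) and Rps20 (3706 bases). Both the unique share and the level per kilobase depend on the transcript chosen. Across the 85 genes, the log2 level and the unique share had a Pearson r of 0.44 and a Spearman rho of 0.52, given as a description since all genes share the same libraries. Rpl3l and Rpl39l were exceptions, being 100% unique and still at the bottom. Differences in level between members are therefore not read as differences in mRNA abundance below, and the text compares each gene with itself across libraries.

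**Figure D1:**
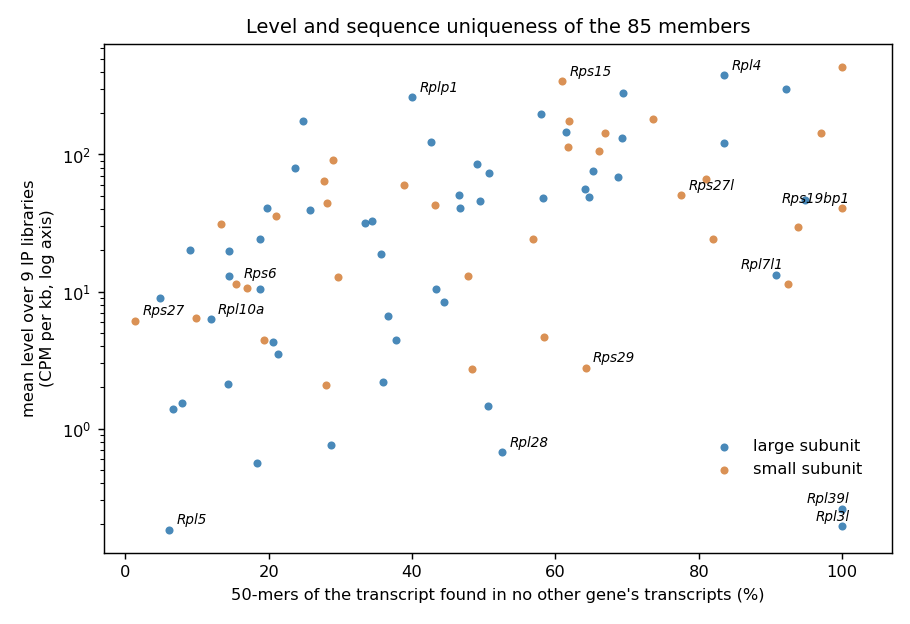
Mean level over the 9 IP libraries (CPM per kb, log axis) against the percentage of 50-base stretches found in no other gene's transcripts, 1 point per member (52 large and 33 small subunit genes). Rpl4 lies at the upper right, Rpl5 at 0.183 CPM per kb and 6.16% unique at the lower left, and Rpl3l and Rpl39l at the lower right.

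Rpl10a, the protein that carries the tag and part of the stalk that helps release tRNA from the ribosome, was low in every library. Its gene lies at chr17:28328471-28331033 on the plus strand (GRCm38, GENCODE M21), its reference transcript has 729 bases, and 11.9% of its 50-base stretches were unique. Reads of tagged and endogenous Rpl10a were counted together, because the genome build has no transgene sequence. Rpl10a measured 4.72, 5.90 and 4.39 CPM in the saline IP libraries, 3.60, 5.28 and 3.86 CPM in the cocaine IP libraries, 4.64, 4.23 and 4.81 CPM in the yoked IP libraries and 5.14 CPM in the input. The IP groups overlapped, and the input lay within the saline and cocaine ranges and above all yoked libraries. These levels rest on 159 to 344 counts per library and place Rpl10a between rank 36 and rank 38 of the 52 large subunit members by CPM.

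No contrast called Rpl10a. Its log2FC was -0.25 ± 0.23 for cocaine against saline (edgeR adjusted p = 0.990), -0.14 ± 0.23 for yoked against saline and -0.11 ± 0.23 for cocaine against yoked. Saline IP against input gave -0.04 ± 0.32 (edgeR adjusted p = 0.964), while S100a10 was higher in every IP library than in the input. Relative to the median of the other large subunit members, Rpl10a stood at 0.196 ± 0.019 (SD, n = 3) in saline IP, 0.189 ± 0.031 in cocaine IP and 0.272 in the input. The ratio in the single input lay above all 9 IP values, whose range was 0.154 to 0.214. This order depended on the measure. With each gene set against its own IP mean, Rpl10a stood above the median of the other large subunit members by 0.24 (log2) in the input. By that measure the input lay below yoked library 3 (0.26) and above the other IP libraries. With a length-dependent offset, described below, the log2FC of Rpl10a was 0.0085 for cocaine against saline and 0.079 for yoked against saline, the opposite sign.

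The 5 non-member genes with profiles most like Rpl10a over the 9 IP libraries, by Pearson r of log2 CPM, were Tbata (0.945), Aurkaip1 (0.935), Dnlz (0.933), Higd2a (0.927) and Fis1 (0.922). Of the other 84 members, 57 were among the top 10% of the 16641 genes ranked this way, with a median r of 0.61 over members. Rpl36al was the most similar member (r = 0.904), and the lowest r among members was -0.02.

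The members as a family differed between libraries, and the difference ran mostly within groups. For each member, the log2 CPM in a library was set against that gene's mean over the 9 IP libraries. The median of these deviations was 0.37, 0.39 and -0.21 in saline IP libraries 1, 2 and 3, then -0.14, 0.13 and -0.34 in cocaine IP, 0.12, -0.14 and -0.16 in yoked IP and -0.07 in the input. Saline libraries 1 and 2 stood highest, and saline library 3 lay below 5 of the 6 cocaine and yoked libraries. Of the 85 members, 71 reached their highest IP level in saline library 1 or 2 (37 and 34 members), and 43 had both of these libraries above the other 7. Saline library 3 was the lowest saline library for 75 members, and 43 members were lowest of all in cocaine library 3. These orders were counted for members only, so the counts stand without a share over all genes. In each IP group the library numbered 3 had the lowest median, and these 3 libraries also stood apart in some of the cell type markers. Slc17a7, a marker of excitatory neurons, measured 540 to 636 CPM in them and 231 to 330 CPM in the other 6 IP libraries, while Gad2, a marker of inhibitory neurons, measured 143 to 167 CPM against 185 to 555 CPM. Of the other neuronal markers, Gad1, Syt1 and Stmn2 also separated these libraries and the rest overlapped. Neurod6 measured 142 to 176 CPM in them against 135 to 162 CPM, and Camk2a 2061 to 2393 CPM against 1345 to 2380.5 CPM. Endothelial markers summed to 42.0 to 47.9 CPM against 21.6 to 29.97 CPM, and meningeal markers without Ptgds to 3032 to 3177 CPM against 1875 to 2655 CPM. The part of this in the family's shift was not tested. Without these 3 libraries, a choice made after seeing the data, the members' median log2FC was -0.39 for cocaine against saline, -0.42 for yoked against saline, -0.0063 for cocaine against yoked and 0.47 for saline IP against input.

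**Figure D2:**
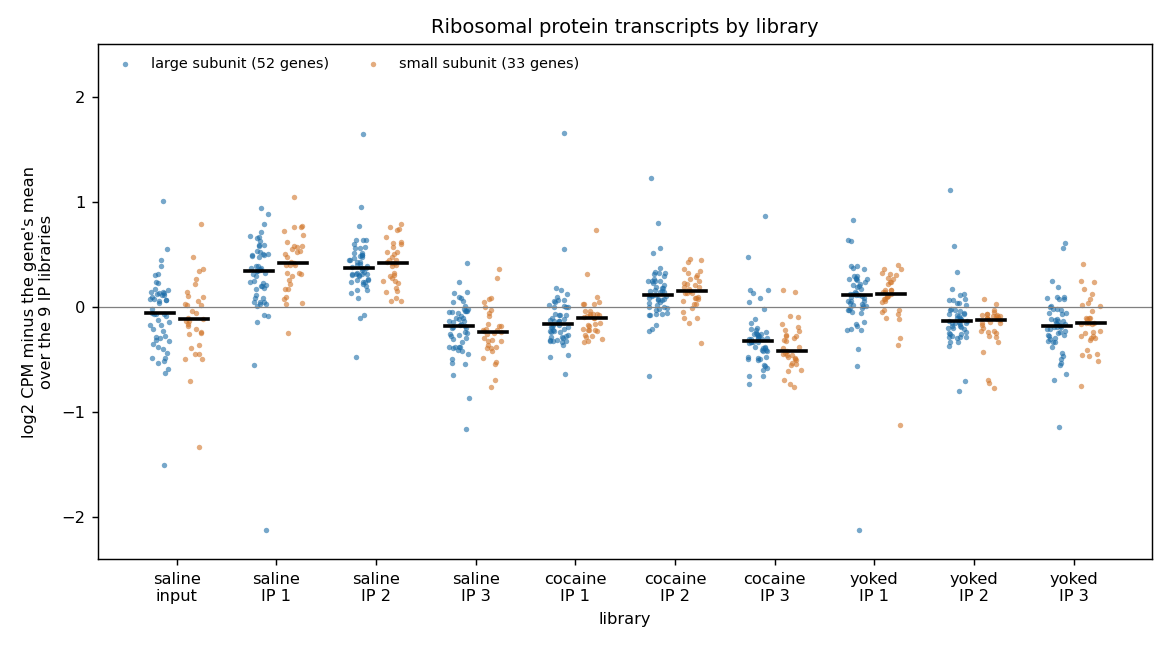
Deviation of each member's log2 CPM from its own mean over the 9 IP libraries, by library, with blue points for the 52 large and orange points for the 33 small subunit genes and black bars for the medians. Both subunits shift together, highest in saline IP libraries 1 and 2 and lowest in cocaine IP library 3.

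Large and small subunit genes moved in parallel. The median deviation in saline libraries 1, 2 and 3 was 0.34, 0.37 and -0.18 for the large subunit and 0.42, 0.42 and -0.24 for the small subunit. In cocaine library 3, the lowest for the family, it was -0.32 for large and -0.42 for small subunit members. The summed CPM of large subunit members divided by that of small subunit members was 1.37, 1.32 and 1.45 in saline IP, 1.40, 1.34 and 1.47 in cocaine IP, 1.42, 1.36 and 1.36 in yoked IP and 1.37 in the input. The group means were 1.38 ± 0.07 for saline IP and 1.40 ± 0.07 for cocaine IP (SD, n = 3), and the input lay within the range of each IP group. This ratio carries the unequal uniqueness of the genes and is not a ratio of subunits, since the 5 highest large subunit members held 46.2% of the large subunit sum and the 5 highest small subunit members 52.5% of theirs.

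**Figure D3:**
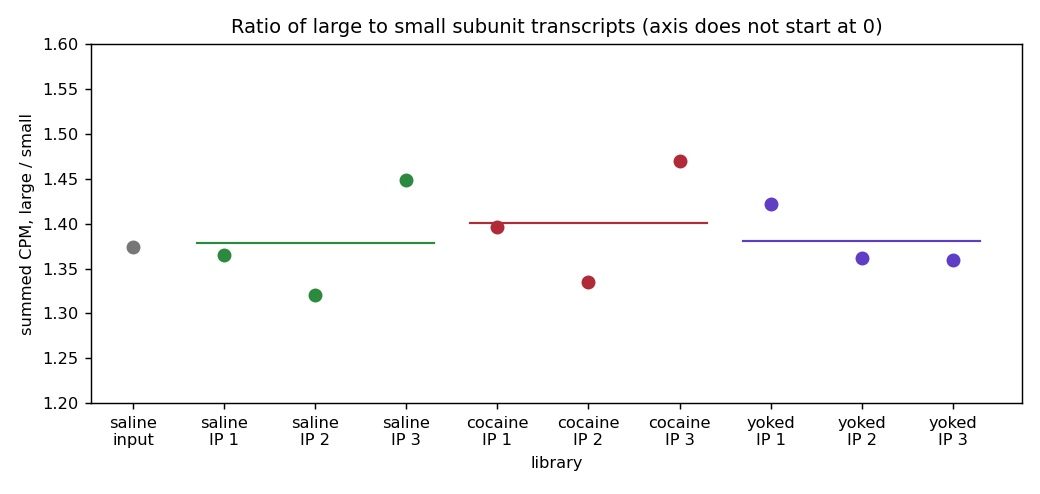
Summed CPM of the 52 large subunit members divided by that of the 33 small subunit members in each library, with horizontal lines for the IP group means (the vertical axis does not start at 0). All 10 libraries lie between 1.32 and 1.47, and the 3 IP groups overlap.

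Cocaine IP against saline IP asks what self-administered cocaine changes in the ribosome-bound RNA, and yoked IP and cocaine IP against each other and saline ask the same for the yoked condition. No ribosomal protein gene passed the test in any of these contrasts, nor did any of the 16642 genes tested (0% called in each direction). Even so, 79 of 85 members had a lower mean level in cocaine IP than in saline IP, where 53.1% of all genes did (46.9% were higher). The median log2FC of the members was -0.33, a level of 79.8% of saline, against -0.02 over all genes. It was -0.32 for the large and -0.34 for the small subunit. Unadjusted p-values under 0.05 were found for 12 members (14.1%), all lower, and for 3.18% of all genes, and 0 members were called by DESeq2. In 5 members (Rpl15, Rplp1, Rpl10, Rps29 and Rps28) all cocaine libraries lay below all saline libraries, as in 4.32% of all genes, and in none did they all lie above (4.64% of all genes). Leaving out 1 library at a time moved the members' median between -0.50 (without saline library 3) and -0.22 (without cocaine library 3).

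Yoked IP against saline IP uses the same saline libraries, so it is no second test of the same difference. There, 80 of 85 members were lower, with 51.9% of all genes lower and 48.1% higher, and the members' median was -0.30 against -0.01 over all genes. edgeR and DESeq2 called 0 members, 5 members (5.88%, against 2.39% of all genes) had an unadjusted p under 0.05, and 3 (Rpl24, Rplp1 and Rpl18) had groups that do not overlap, all lower, against 3.05% of all genes lower and 3.03% higher. Without saline library 2 the median was -0.18, and without saline library 3 it was -0.45. Cocaine against yoked gave a median of -0.06, with 60 of 85 members lower where 52.4% of all genes were lower and 47.6% higher, and 0 members with an unadjusted p under 0.05 in edgeR or called by DESeq2. Groups did not overlap for 2 members, Rps29 (lower, as in 2.25% of all genes) and Rpl3l (higher, as in 2.49%). Without cocaine library 3 that median turned to 0.05. The joint test of any difference among the IP groups called 0 members of 85 and 0% of all genes, with an unadjusted p under 0.05 for 5 members and 268 genes.

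The stalk proteins, which bring elongation factors to the ribosome, had some of the smallest unadjusted p-values. Rplp1 measured 199, 176 and 132 CPM in saline IP, 116, 120 and 103 CPM in cocaine IP, 109, 104 and 111 CPM in yoked IP and 139 CPM in the input. Every cocaine and yoked library lay below every saline library, while the input fell within the saline range. The log2FC of Rplp1 was -0.59 ± 0.16 for cocaine against saline (edgeR adjusted p = 0.990) and -0.65 ± 0.16 for yoked against saline (edgeR adjusted p = 0.99983). With the length offset described below these were -0.23 and -0.35. Over the alternatives the smallest adjusted p of Rplp1 was 0.533 for the first contrast and 0.404 for the second, both without the libraries numbered 3. Rplp2 measured 177, 164 and 122 CPM in saline IP, 105, 124 and 106 CPM in cocaine IP, 127, 105 and 121 CPM in yoked IP and 98.7 CPM in the input. Saline library 3 lay below cocaine library 2 and yoked library 1, so groups overlapped (log2FC -0.48 ± 0.17 and -0.40 ± 0.17). Rplp0, which anchors them, had log2FC -0.34 ± 0.17 and -0.19 ± 0.17.

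Rps6, the small subunit protein phosphorylated by the S6 kinases, measured 16.1, 10.8 and 9.17 CPM in saline IP, 8.72, 9.04 and 9.17 CPM in cocaine IP, 10.9, 9.19 and 6.80 CPM in yoked IP and 5.96 CPM in the input. Saline library 1 stood apart from the rest, and the other saline libraries overlapped the cocaine or yoked values. The log2FC was -0.44 ± 0.24 for cocaine against saline and -0.43 ± 0.24 for yoked against saline. Rps19, a small subunit protein known from inherited anemia, had 22.0, 26.4 and 16.2 CPM in saline IP and 17.5, 20.7 and 12.6 CPM in cocaine IP, which overlap (log2FC -0.36 ± 0.22). Rps27a, made as a fusion with ubiquitin, was 1 of the 6 members with a positive log2FC for cocaine against saline (0.09 ± 0.37).

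**Figure D4:**
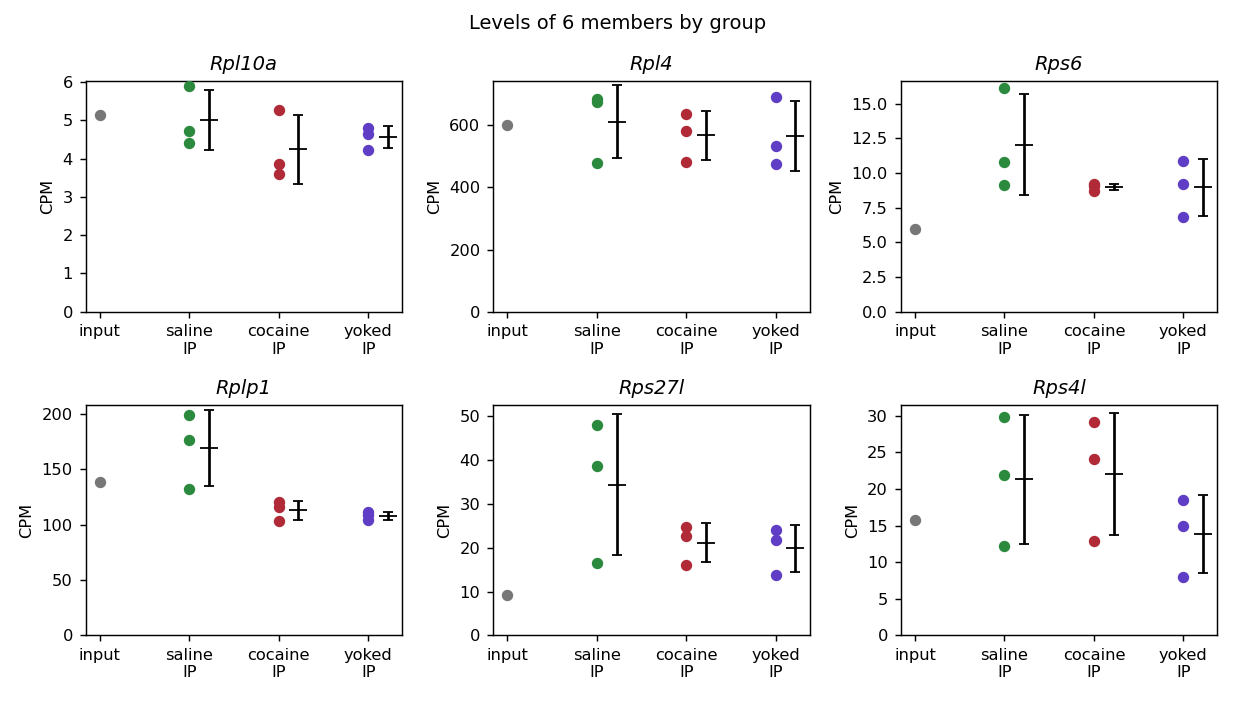
CPM of 6 members in each library by group (points), with the mean ± SD of the 3 libraries of each IP group beside them and axes that start at 0. Rplp1 is lower in all cocaine and yoked IP libraries than in all saline IP libraries, Rps27l is lowest in the input, and the IP groups overlap for Rpl10a, Rpl4 and Rps4l.

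Among the large subunit, Rpl4, which reaches into the exit tunnel, had the highest CPM at 683, 675 and 477 in saline IP, 583, 638 and 481 in cocaine IP, 690, 532 and 475 in yoked IP and 601 in the input. Its groups overlapped (log2FC -0.12 ± 0.19 in both contrasts with saline). Other members with a high mean CPM were Rps3 at 272, Rpl8 at 257 and Rps15 at 171. Of these, Rps15 measured 221, 234 and 165 CPM in saline IP, 144, 166 and 134 in cocaine IP and 180, 143 and 151 in yoked IP, with log2FC -0.49 ± 0.17 for cocaine against saline. Only saline library 3 reached into the range of the other groups.

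Rpl5 and Rpl11, which form a particle with the smallest ribosomal RNA and can bind Mdm2, the ubiquitin ligase of p53, had log2FC -0.25 ± 0.52 and -0.31 ± 0.32 for cocaine against saline. Rpl3 and Rpl10, near the site where peptide bonds form, had -0.15 ± 0.22 and -0.47 ± 0.35. Rpl39 and Rpl41, among the smallest ribosomal proteins, had -0.53 ± 0.23 and -0.56 ± 0.30, and the X-linked Rps4x had -0.32 ± 0.21. Groups overlapped for all of these except Rpl10, whose highest cocaine library, at 1.14 CPM, lay just under its lowest saline library, at 1.16 CPM.

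The largest negative log2FC for cocaine against saline belonged to Rps27l (-0.72 ± 0.33), Rpl35a (-0.65 ± 0.31) and Rpl37rt (-0.63 ± 0.28). Rpl35a measured 35.8, 46.1 and 16.4 CPM in saline IP and 21.6, 26.5 and 15.1 CPM in cocaine IP, so saline library 3 fell among the cocaine values. Without saline library 1 the value of Rps27l was -0.39, and without saline library 3 it was -1.04. Rpl37rt and Rps4l are annotated as transcribed processed pseudogenes and met the symbol rule. The largest positive values were Rpl39l (1.11 ± 0.82), Rpl3l (0.93 ± 1.15) and Rpl26 (0.41 ± 0.54), which rest on few counts. Rpl3l had 0, 28 and 2 counts in saline IP, 28, 15 and 17 in cocaine IP, 0, 8 and 12 in yoked IP and 12 in the input, so saline library 2 alone matched the cocaine libraries. Rpl39l had 9, 5 and 4 counts in saline IP, 5, 22 and 13 in cocaine IP, 4, 23 and 4 in yoked IP and 2 in the input. For yoked against saline, Rpl24 (-0.81 ± 0.58), Rps27l (-0.80 ± 0.33) and Rplp1 were lowest. Of these, Rpl24 also rests on few counts, 23, 26 and 17 in saline IP and 12, 20 and 6 in yoked IP. The extremes at the other end were Rpl39l (0.71 ± 0.83), Rpl34 (0.23 ± 0.27) and Rpl23a (0.18 ± 0.38). For cocaine against yoked they were Rpl34 (-0.55 ± 0.27), Rpl23a (-0.40 ± 0.39) and Rps29 (-0.32 ± 0.35) at the low end and Rpl3l (1.58 ± 1.19), Rps4l (0.66 ± 0.37) and Rpl26 (0.63 ± 0.54) at the high end. Rps4l measured 22.0, 29.8 and 12.2 CPM in saline IP, 29.2, 24.1 and 12.8 in cocaine IP and 8.04, 18.5 and 14.99 in yoked IP, a wide spread within each group.

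Members varied between IP libraries somewhat more than most genes, with a median SD of log2 CPM of 0.33 against 0.28 over all genes tested. The largest SDs were those of Rpl3l (1.48), Rpl39l (0.76) and Rps4l (0.63), and the smallest those of Rpl7l1 (0.18), Rpl18 (0.21) and Rpl10a (0.22). Rpl7l1 is a paralog of Rpl7, and its levels ran from 28.6 CPM in cocaine library 3 to 40.3 CPM in yoked library 1.

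The shift of the family between libraries went with transcript length in other genes. For the genes that are not members, the log2 ratio of each library to the mean library was regressed on log2 transcript length. The slope per doubling of length was -0.12, -0.12 and 0.06 in saline IP libraries 1 to 3, 0.07, -0.05 and 0.09 in cocaine IP, -0.09, 0.06 and 0.10 in yoked IP and 0.16 in the input. The 4 libraries with a positive median deviation of the members (saline 1, saline 2, cocaine 2 and yoked 1) were the 4 with a negative slope, in which short transcripts were relatively higher. Other genes with a mean log2 CPM of at least 1 and under 500 bases had a median log2FC of -0.41 for cocaine against saline (67 of 70 lower), and those of 500 to 1000 bases had -0.27 (612 of 676 lower), while genes over 4000 bases had 0.08. Members had -0.49 under 500 bases (15 of 15 lower), -0.33 from 500 to 1000 bases (44 of 49 lower) and -0.28 from 1000 to 2000 bases (15 of 16 lower), where other genes had -0.12. From 2000 to 4000 bases members had -0.31 (4 of 4 lower), where other genes had -0.0012. These 4 were Rpl5, Rpl7l1, Rpl22 and Rps20. The 1 member over 4000 bases, Rps15a, had -0.26. Length was that of 1 reference transcript per gene, so the class of these few long members depends on the transcript chosen. With an offset for each library fitted on transcript length, the members' median was -0.09 for cocaine against saline and -0.09 for yoked against saline, in place of -0.33 and -0.30.

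**Figure D5:**
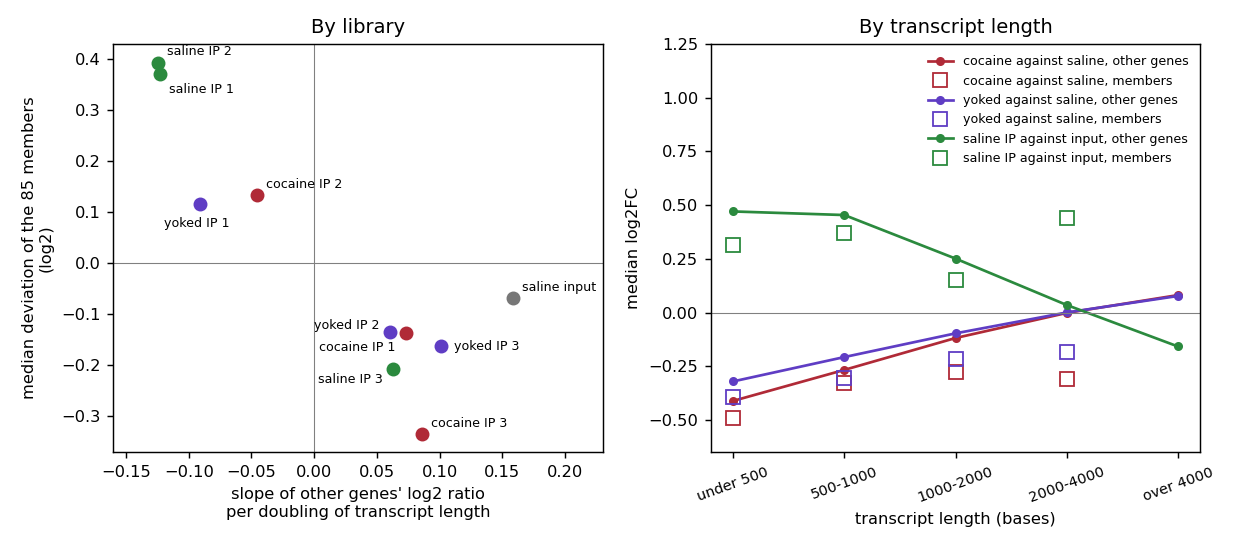
Left, median log2 deviation of the 85 members in each library against the slope of the other genes' log2 ratio per doubling of transcript length. Right, median log2FC by transcript length for other genes (lines) and for members (open squares, classes with at least 3 members). The libraries with a negative slope are those in which members are high. The squares of members under 1000 bases lie close to the lines of the same comparison, and those of 2000 to 4000 bases lie further from them. The latter squares hold 4 members, whose length class depends on the reference transcript chosen.

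Saline IP against input shows what the purification selects from the tissue, with a single input library whose variance was taken to equal that of the IP libraries. Of 85 members, 72 were higher in saline IP, where 51.5% of all genes were higher and 48.4% lower, and the median log2FC was 0.34 against 0.02 over all 18437 genes tested. It was 0.30 for the large and 0.36 for the small subunit. Only Rps27l was called, and it was higher in saline IP. An unadjusted p under 0.05 was found for 7 members (8.24%, against 25.1% of all genes). Among all genes, 7.07% were called higher and 4.26% lower. That call was lost without saline library 1 or without saline library 2. More members were called without saline library 3 or without the 3 libraries numbered 3. The counts over all genes under these alternatives are given with the processing below. All saline IP libraries lay above the input for 33 members and below it for 4, against 31.6% and 33% of all genes. The same input set beside cocaine IP gave a median of -0.06 with 38 of 85 members higher (51.2% of all genes higher), and beside yoked IP a median of -0.00 with 42 of 85 higher (51.2% of all genes). Neither of these called a member in edgeR (DESeq2 was not run on them), and 1 and 3 members had an unadjusted p under 0.05 (1.18% and 3.53%, against 20.2% and 22.3% of all genes). Of all genes, 5.7% were called higher and 2.26% lower in cocaine IP, and 6.27% higher and 3.5% lower in yoked IP. All cocaine IP libraries lay above the input for 17 members and below it for 17 (31.5% and 32.4% of all genes), and all yoked IP libraries above it for 24 and below it for 17 (30.5% and 32.9%). These comparisons share the input, which is a saline library, and are given side by side only. With the offset on transcript length the members' median for saline IP against input was -0.07 in place of 0.34.

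Rps27l, a paralog of Rps27 that p53 is known to induce, measured 48.1, 38.6 and 16.6 CPM in saline IP, 22.6, 24.7 and 16.1 CPM in cocaine IP, 24.1, 21.7 and 13.8 CPM in yoked IP and 9.20 CPM in the input. Every IP library lay above the input, and saline libraries 1 and 2 lay above the other 7. Its log2FC for saline IP against input was 1.90 ± 0.52 (edgeR adjusted p = 0.0315). The call did not pass without saline library 1 (log2FC 1.59) or without saline library 2 (1.79), while the log2FC was 2.23 without saline library 3. With the offset on transcript length it was 1.35 (adjusted p = 0.0319). Next to it, Rps27 itself measured 3.30, 2.76 and 1.54 CPM in saline IP and 2.63 CPM in the input (log2FC -0.05 ± 0.47). Per kilobase, Rps27l to Rps27 had a ratio of 3.96 to 10.1 after IP and 2.42 before it. Since 1.35% of Rps27 and 77.6% of Rps27l sequence was unique, the size of this ratio depends on how reads were counted.

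Other members set apart from the input without passing the test were Rps6 (log2FC 1.01 ± 0.36, edgeR adjusted p = 0.0879), Rpl39 (0.83 ± 0.33), Rplp0 (0.72 ± 0.25, adjusted p = 0.0823) and Rplp2 (0.65 ± 0.24). DESeq2 called Rps27l, Rps6 and Rplp0, and the share it called over all genes is not given here. Rps19bp1, which binds Rps19 and is not part of the ribosome, met the symbol rule and had 39.1, 41.8 and 35.3 CPM in saline IP against 24.6 CPM in the input (0.66 ± 0.28). The lowest values were those of Rpl5 (-0.94 ± 0.73), Rps12 (-0.56 ± 0.51) and Rpl9 (-0.40 ± 0.68). Rpl5 had 12 to 22 counts in each IP library and 53 counts in the deeper input, or 0.245 to 0.497 CPM against 0.792 CPM. The highest log2FC, that of Rpl39l (2.03 ± 1.55), set 4 to 9 counts in saline IP against 2 in the input.

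Ratios between paralogs varied from library to library. The per-kilobase ratio of Rpl22l1 to Rpl22, an RNA-binding large subunit protein, was 0.589 to 0.845 across IP libraries, with 0.844 in the input. For Rpl36al to Rpl36a it was 0.377 to 0.653 against 0.447, and for Rpl7l1 to Rpl7 0.274 to 0.400 against 0.317. The ratio of Rps4l to Rps4x ran from 0.155 to 0.620 with 0.375 in the input. For these 4 pairs the input lay within the IP range. Rpl39l to Rpl39 had 0.00095 to 0.0052 across IP libraries and, below them all, 0.00044 in the input, where Rpl39l had 2 counts. Rpl3l to Rpl3 ran from 0 to 0.0228, with 0.0057 in the input.

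Genes of related function gave a background for the family. Mitochondrial ribosomal protein genes, which serve a separate ribosome, were lower in 66 of 76 tested for cocaine against saline (median -0.17, 0 called). In saline IP against input, 68 of the 76 were higher (median 0.34, 0 called), where 7.07% of all genes were called higher and 4.26% lower. Other mRNAs known for TOP tracts, such as those of elongation factors, were lower in 14 of 17 for cocaine against saline (median -0.11, 0 called). Against input, 10 of these 17 were lower in saline IP (median -0.03, 0 called), unlike most members. For cocaine against saline, ribosome biogenesis genes, with longer transcripts, were lower in 13 of 37 (median 0.06, 0 called). Genes of the mTOR and S6 kinase pathway were lower in 12 of 27 (median 0.05, 0 called). In the latter list, Rps6ka2, a ribosomal S6 kinase, was called lower in saline IP than in input (log2FC -0.78 ± 0.23, edgeR adjusted p = 0.0427). It was the 1 gene called of the 27 tested, and 4.26% of all genes were called lower in that contrast. Members with a pyrimidine run of at least 8 at the annotated start, such as Rps6 and Rpl15 above, had a median of -0.37 for cocaine against saline (24 of 24 lower), and the other members with a RefSeq entry had -0.33 (36 of 40 lower).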

How the data were processed

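The authors deposited 1 table of raw read counts per gene symbol for each library. STAR 2.0.0e, HTSeq and build mm10 were used, per the submitters' processing notes. The strand setting, annotation and HTSeq version were not given in the sources used here, so overlapping and antisense genes cannot be told apart. The 6 rows that name no gene were left out. The members and lists were chosen with earlier results of these data known.

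Counts were fitted with edgeR 4.0.16 (R 4.3.3) by the quasi-likelihood test with Benjamini-Hochberg adjustment, after filterByExpr (minimum count 10) and TMM scaling. The 9 IP libraries shared 1 fit (16642 genes tested), and all 10 libraries entered the fit against input (18437 genes). All 85 members passed the filter. Levels are counts divided by library size and TMM factor, and 0.05 CPM was added before taking log2. Transcript lengths and shared sequence came from GENCODE M21, whose transcripts do not include unannotated copies. Library pairs within a group differed by a chi-square per degree of freedom of at least 32.8, so each library counted as 1 replicate. The fit was tested on simulated data.

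Named genes were a set chosen by role, plus the 5 highest and 5 lowest by mean CPM, the 3 largest log2FC each way per contrast, members called, and the 3 largest and 3 smallest SDs. Some genes these rules and lists hold are not reported here. Alternatives were DESeq2 1.42.0, other scalings and filters, the replicate block, a length offset (loess, span 0.5) and leaving out libraries.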

Additional observations from a re-analysis of the deposited data

How the results depend on the processing

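Under the alternatives run, 0 members were called in the joint test and in any contrast of IP groups. Of the values, 474 were scored as unchanged. For a single-gene log2FC this meant the same direction and side of the threshold. For a count of calls it meant an equal or similar number, including 0 against 0. Medians and ratios had to stay within the spread of libraries, or for the input ratio within a limit set by counting error. Another 17 moved further, 9 single-gene log2FC changed sign and 2 lost significance. Medians and subunit differences were scored by the size of the move only, so their changes of sign are not among the 9. For saline IP against input, members called numbered 1 in the main analysis, 3 with DESeq2 and 12 without the 3 libraries numbered 3 (an alternative chosen after seeing the data, under which 3442 genes were called against 2089). Leaving out each saline library gave 0 to 4 members and 1464 to 2075 genes. Rps27l ranged from 1.59 to 2.23 there. The genes that DESeq2 called over all are not given here, so its count of members stands without a share. Rpl10a changed sign: for saline IP against input it was 0.027 without TMM factors, 0.039 without the libraries numbered 3 and -0.20 to 0.038 leaving out 1 library, and for cocaine against yoked -0.29 to 0.0041 (without cocaine library 1). With the length offset it was 0.0085 for cocaine against saline and 0.079 for yoked against saline, and with the replicate block and that offset 0.012 and 0.081. The members' median for saline IP against input was -0.071 with the length offset. The large minus small difference in median log2FC for cocaine against yoked ran from -0.059 to 0.024 leaving out 1 library. The log2 ratio of large to small subunit sums was 0.46 in saline IP, 0.49 in cocaine IP and 0.46 in the input. As a difference of median log2 CPM it was -0.67 in saline IP, -0.44 in cocaine IP, -0.49 in yoked IP and -0.38 in the input. Without the 5 highest members it was 0.68, 0.63, 0.66 and 0.58, and with core members only it was 0.47 in the input. The cause of these shifts was not tested. The replicate block called 0 members, with medians of -0.32, -0.27 and -0.07 for the 3 contrasts. Same-numbered libraries had correlations of deviations from -0.04 to 0.32. The libraries numbered 3 deviated together (0.28 to 0.32), but those numbered 1 and 2 did not all do so (-0.04 to 0.22), and numbers were not treated as pairs. Where a group was left with 2 libraries or the input with 1, spread was shared across groups. The joint test was not run with DESeq2 or with 2 groups only. Counting error limits members with few counts, such as Rpl3l and Rpl39l (0 to 28 counts) and Rpl24 (6 to 27 counts).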
